A study of Rattus norvegicus with 6 samples.

Results

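The genes described here encode subunits of the mitochondrial respiratory chain and of the ATP synthase that it drives. They were taken by symbol from the array annotation, as genes of complex I (Ndufa, Ndufb, Ndufc, Ndufs and Ndufv, without the Ndufaf assembly factors), complex II (Sdha to Sdhd), complex III (Uqcr genes and Cyc1), complex IV (Cox4 to Cox8 genes) and complex V (Atp5 genes). This gave 81 of the 14217 genes that have a probe set with a single symbol, covered by 90 probe sets, and the brightest probe set stood for each gene. RNA came from rat metrial gland, the uterine wall tissue behind the placenta, taken from pregnant animals at gestation day 13.5. The ambient group (3 arrays) was kept at 21% oxygen and the hypoxia group (3 arrays) at 10.5% oxygen from gestation day 6.5 to day 13.5. The sources used here give neither strain nor age of the dams, nor whether an array holds 1 animal or a pool, so p-values here cover only how these arrays vary among themselves, and that variation may be technical.

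Complexes I and II pass electrons from NADH and succinate to ubiquinone, complex III hands them to cytochrome c, and complex IV (cytochrome c oxidase) gives them to oxygen. Complexes I, III and IV pump protons, and complex V uses the gradient to make ATP. The subunits on this array are encoded in the nucleus, and a few have paralogues tied to a tissue or to low oxygen. The best known of these are Ndufa4l2, a target of hypoxia-inducible factor 1 (HIF1) that lowers respiration in cultured cells, and Cox4i2, the form of cytochrome oxidase subunit 4 found in lung and some other tissues.

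The array values are log2 expression, and a difference is hypoxia minus ambient on that scale. All arrays had medians between 6.44 and 6.47. Of the 81 genes, 77 stayed after removal of the 40% of probe sets that were dimmest on average, and each of the 77 lay above the highest of 27 bacterial control probe sets (5.003) on all 6 arrays. The remaining 4, Cox6a2, Cox7b2, Cox8b and the pseudogene Cox6c-ps1, were left out for low signal and are described with complex IV. The summed linear level of uterine killer cell markers was 46517 to 53173 in ambient and 38051 to 41952 in hypoxia, with Gzma at or below the bacterial controls on all arrays. That of trophoblast markers was 2413 to 6389 and 12144 to 17656 (Gcm1 at or below the bacterial controls), and that of erythroid markers 7618 to 10479 and 18180 to 22533. These sums moved with the groups (4 of 8 killer cell markers lower, 6 of 9 trophoblast and 4 of 5 erythroid markers higher at an adjusted p under 0.05). Among all probe sets 1.97% were called lower and 4.02% higher. The erythroid marker Epor was lower without overlap (-0.27). Of 4 macrophage markers 1 fell, Cd163 by 1.05, and Csf1r was lower without overlap (-0.22), with sums of 1695 to 1918 and 1529 to 1815. The part of these cell types in the values below was not tested. In bulk tissue, fewer cells of a type and less RNA per cell cannot be told apart. For the actin control, whose gap between 3' and 5' probe sets widens as RNA degrades, that gap was 0.50 ± 0.07 (SD, n = 3) in ambient and 0.67 ± 0.10 in hypoxia. Every hypoxia array had a larger actin gap (0.58, 0.77 and 0.66) than any ambient array (0.53, 0.54 and 0.41). For the GAPDH control the gap was -0.033 ± 0.022 in ambient and 0.0039 ± 0.049 in hypoxia, and its groups overlapped. The part of RNA quality in the values below was not tested.

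Respiratory chain transcripts changed little after a week at 10.5% oxygen. Of the 77 subunit genes tested, 1 rose (Ndufa4l2) and 0 fell at a limma adjusted p under 0.05, with 3 higher and 4 lower at an unadjusted p under 0.05. Among all 18625 probe sets tested, 5.99% passed, 4.02% higher and 1.97% lower (67.1% of calls higher, and 55.4% after quantile normalization), and 23.7% had an unadjusted p under 0.05. The median difference over the 77 genes was 0.013, with 41 genes above 0 and 36 below, beside a median of 0.003 over all probe sets, 50.8% of which were above 0. In 61 of the 77 (79.2%) the difference was under 0.1 in size, as in 44.2% of all probe sets. For 69 of the 77 the 95% interval of the difference lay within 0.32 of 0 on the log2 scale, as for 44.7% of all probe sets. The subunits are bright probe sets and their median standard error (SE) was 0.064, against 0.093 over all probe sets, and the part of this smaller error in these shares was not tested. The genes whose interval reached past 0.32 were Ndufa4l2, Ndufa5, Ndufb10, Ndufs1, Uqcrc2, Cox4i2, Cox5a and Cox6b2. For 14 genes the groups did not overlap, 6 with hypoxia above and 8 with hypoxia below, beside 29.9% of all probe sets (15.8% above and 14.1% below).

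**Figure D1:**
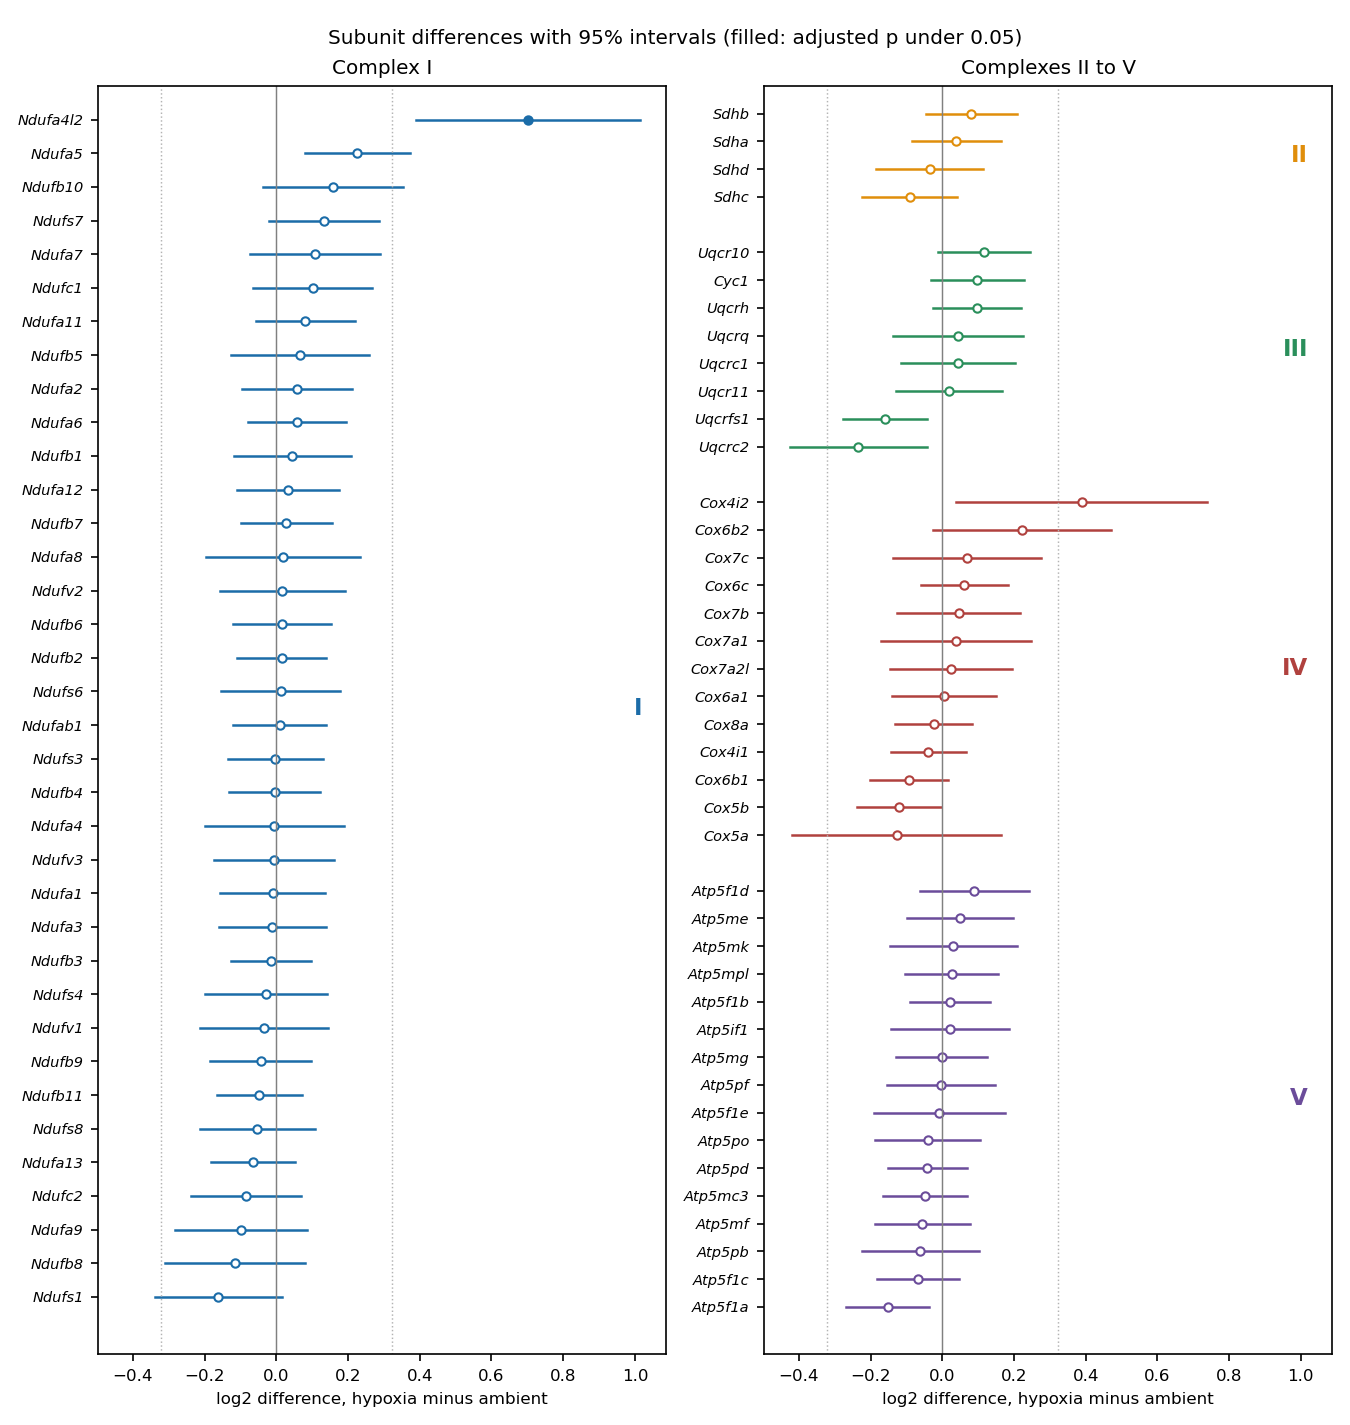
Difference in log2 expression (hypoxia minus ambient, x axis) for the 77 subunit genes tested, by complex. Points are limma estimates, bars are 95% intervals (n = 3 arrays per group), filled points have an adjusted p under 0.05, and dotted lines mark 0.32 either way. Ndufa4l2, at 0.70, is the single filled point, and most other points lie within 0.1 of 0.

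The single gene that rose was Ndufa4l2, the HIF1 target and paralogue of Ndufa4. Its level (probe set 1389018_at) was 7.73, 7.70 and 7.46 on the ambient arrays and 8.57, 8.36 and 8.07 on the hypoxia arrays. Every hypoxia array was above every ambient array. The rise was 0.70 (SE 0.14, 95% interval 0.39 to 1.015; 1.63-fold; adjusted p = 0.0297 by limma). The call was lost when any 1 array other than hypoxia replicate 3 was left out, with an adjusted p of 0.0597 to 0.105 and differences of 0.58 to 0.75. Those fits, with 5 arrays, called 1.43% to 2.88% of all probe sets. Without hypoxia replicate 3 its rise was 0.83.

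Ndufa4 itself, which was first assigned to complex I and is now known as a subunit of complex IV, stood at 11.78, 11.85 and 11.53 in ambient and 11.68, 11.71 and 11.76 in hypoxia. The groups overlapped, and the difference was -0.0052 (95% interval -0.20 to 0.19). Within each array the log2 ratio of Ndufa4l2 to Ndufa4, set to a mean of 0 in ambient, was 0.036, -0.062 and 0.027 in ambient and 0.98, 0.74 and 0.40 in hypoxia. The ratio was higher on all 3 hypoxia arrays, by 0.71 (two-sided exact permutation p = 0.1, which no 3 against 3 comparison can go below; adjusted over 3 paralogue pairs 0.1). By the symbols, both genes are counted with complex I here, and without Ndufa4l2 no gene of complex I passed.

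The sequences before the start sites of this pair are shown because Ndufa4l2 passed the threshold and Ndufa4 did not. Each is the 250 bases before the gene's start in RefSeq's GRCr8 table, and capitals mark matches on either strand to the core of a hypoxia response element, spelled ACGTG or GCGTG. Ndufa4l2 lies at chr7:65241919-65242168 (plus strand) and Ndufa4 at chr4:40975560-40975809 (minus strand).
Ndufa4l2: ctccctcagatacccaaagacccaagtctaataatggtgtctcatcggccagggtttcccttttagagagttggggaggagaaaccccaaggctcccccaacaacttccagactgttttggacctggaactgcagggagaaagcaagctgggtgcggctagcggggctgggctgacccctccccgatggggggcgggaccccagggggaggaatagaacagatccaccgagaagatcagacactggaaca
Ndufa4: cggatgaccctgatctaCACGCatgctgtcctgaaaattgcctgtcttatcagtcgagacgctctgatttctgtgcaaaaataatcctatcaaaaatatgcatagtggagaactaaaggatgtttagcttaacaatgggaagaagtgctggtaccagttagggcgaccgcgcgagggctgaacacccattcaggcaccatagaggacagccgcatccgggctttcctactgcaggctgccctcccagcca
The core was found 0 times before Ndufa4l2 and 1 time before Ndufa4, beginning 233 bases before the start. It occurs in 37.9% of 27457 promoters of this length and in 37 of the 72 subunit promoters in the table (51.4%). The larger set was not matched to the subunits in expression or base composition. These matches are descriptions of letters and say nothing of binding.

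In blood vessels Ndufa4l2 and Cox4i2 are also known as marker genes of pericytes, the mural cells of small vessels, so pericyte markers were read beside them from a list of 10 chosen after the values had been seen. Of the 9 tested, 9 were above 0, with a median difference of 0.33 and 0 calls by limma (6 at an unadjusted p under 0.05, all higher; lowest adjusted p 0.0762). Among all probe sets, 50.8% were above 0, 4.02% were called higher and 23.7% had an unadjusted p under 0.05. A list chosen after the values were seen cannot be weighed against these shares. Their summed linear level was 3785 to 4483 in ambient and 4321 to 5773 in hypoxia, and 0 of the 10 lay at or below the bacterial controls. Notch3, which was left out for low signal, differed by -0.051 (SE 0.11) in the fit with no filter. Rgs5, a regulator of G protein signalling in pericytes, was at 8.90, 8.50 and 8.91 in ambient and 9.34, 9.15 and 9.04 in hypoxia. Higd1b, a further pericyte gene and a relative of the hypoxia-induced Higd1a, differed by 0.064 (SE 0.13). Smooth muscle markers had 0 calls by limma among 6 (1 higher unadjusted), with 5 above 0, 1 below and a median of 0.076. Their summed linear level was 26333 to 33508 in ambient and 26672 to 35530 in hypoxia. Endothelial and decidual stroma markers lay above 0, and some of them passed. Of 7 endothelial markers 4 rose (Vwf by 1.196, Tie1 by 0.69, Cldn5 by 0.57 and Tek by 0.48) and 7 were above 0, with a summed linear level of 5995 to 6246 in ambient and 6851 to 7573 in hypoxia. Of 6 decidual stroma markers 2 rose, Hand2 and Bmp2, and 6 were above 0, with a sum of 22848 to 24896 and 27974 to 38897. The endothelial Kdr (0.096) and the decidual Vim (0.0029) overlapped. Des (0.20), in both the decidual and the smooth muscle list, is the 1 smooth muscle marker that was higher unadjusted. No smooth muscle, endothelial or decidual stroma marker lay at or below the bacterial controls. The part of any of these cells in the rise of Ndufa4l2 was not tested.

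The rest of complex I, the NADH dehydrogenase, showed no call among 35 other genes. All 36 had a tested probe set, and their median difference was 0.011, with 19 above 0 and 17 below, and 2 at an unadjusted p under 0.05, both higher. The median was -0.014 under quantile normalization and ran from -0.0021 to 0.028 with 1 array left out. Ndufa5, a subunit of the peripheral arm, came nearest to the threshold. It stood at 9.70, 9.61 and 9.58 in ambient and 9.85, 9.91 and 9.81 in hypoxia, with no overlap, a difference of 0.23 (SE 0.06) and a limma adjusted p of 0.0778. Over the alternative settings its difference was 0.20 to 0.26 and its adjusted p 0.0547 to 0.215.

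Ndufs1, which carries iron-sulphur clusters of the electron path, had the largest negative difference of the complex. It was at 9.77, 9.78 and 9.67 in ambient and 9.62, 9.45 and 9.67 in hypoxia, a difference of -0.16 (SE 0.08, adjusted p = 0.248 by limma), and its groups touched at 9.668 and 9.6679. Without hypoxia replicate 2 the Ndufs1 difference was -0.097. Ndufb8, an accessory subunit of the membrane arm, differed by -0.11 (SE 0.08), and by -0.046 without ambient replicate 1. Ndufv1, which binds NADH and the flavin, differed by -0.035 (95% interval -0.21 to 0.14). The further subunits Ndufs3, Ndufs7 and Ndufs8 differed by -0.0032, 0.13 and -0.053. By symbol group, the median difference was 0.025 over 14 Ndufa genes, 0.015 over 11 Ndufb genes, -0.016 over 6 Ndufs genes and -0.0072 over 3 Ndufv genes. Second probe sets of Ndufa7 (0.24) and Ndufv3 (-0.042) had the sign of the first and did not pass.

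Complex II, the succinate dehydrogenase that also serves the citric acid cycle, had 0 calls by limma and 0 of its 4 genes at an unadjusted p under 0.05. Sdha, the flavin subunit, was at 10.47, 10.46 and 10.52 in ambient and 10.49, 10.52 and 10.56 in hypoxia. Sdhb, the iron-sulphur subunit, was at 12.07, 11.98 and 11.97 and at 12.12, 12.12 and 12.02. The groups overlapped for both genes, with differences of 0.039 and 0.081. The membrane anchors Sdhc and Sdhd differed by -0.091 and -0.035, and a second probe set of Sdhd by -0.096. The 95% intervals of all 4 genes lay within 0.32 of 0, the widest bound being -0.22 for Sdhc.

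Complex III, the cytochrome bc1 complex, had genes on both sides. Of 8 genes, 0 passed by limma over the brightest probe sets, 2 had an unadjusted p under 0.05 (both lower), and the median difference was 0.044 (0.020 under quantile normalization, and 0.0062 without ambient replicate 3 to 0.087 without ambient replicate 1). Uqcrc2, a core protein of the matrix side, was at 11.22, 11.32 and 11.29 in ambient and 11.04, 10.88 and 11.20 in hypoxia, a difference of -0.23 (SE 0.08, adjusted p = 0.137). All hypoxia arrays were below all ambient arrays. Its second probe set (1382280_at) was at 10.08, 10.07 and 10.15 in ambient and 9.85, 9.62 and 9.84 in hypoxia. That probe set fell by 0.33 (SE 0.08), with a limma adjusted p of 0.0459, and was the single call among the 5 further probe sets tested (4 others were too dim). For the Uqcrc2 second probe set the call was lost when any 1 array was left out (adjusted p up to 0.151), with no filter (0.0534) and with no variance trend (0.0646). The 2 probe sets had the same sign and differed in passing the threshold.

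Uqcrfs1, the Rieske iron-sulphur protein that takes electrons from ubiquinol, was at 11.56, 11.62 and 11.60 in ambient and 11.45, 11.38 and 11.46 in hypoxia. Its groups did not overlap, and the difference was -0.16 (SE 0.05, adjusted p = 0.105 by limma). Cyc1, the cytochrome c1 that passes electrons on, was higher on every hypoxia array (11.08, 11.22 and 11.15) than on any ambient array (11.06, 11.07 and 11.02), by 0.098 (SE 0.06, adjusted p = 0.337). Uqcr10 and Uqcrh, small subunits without a redox centre, had the same pattern, at 0.12 and 0.097, with Uqcr10 at 0.069 without ambient replicate 3. Uqcrc1, the partner of Uqcrc2 in the core, differed by 0.044 with overlapping groups. Of the 8 genes of complex III, 3 were thus higher and 2 lower without overlap, beside 15.8% and 14.1% of all probe sets. None of these differences passed over the brightest probe sets.

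Complex IV, cytochrome c oxidase, had the largest difference that did not pass. Cox4i2 was at 6.65, 6.82 and 6.82 in ambient and 7.23, 7.41 and 6.81 in hypoxia, so that hypoxia replicate 3 lay among the ambient arrays and the other two above them. The difference was 0.39 (SE 0.15, 95% interval 0.039 to 0.74; 1.31-fold; adjusted p = 0.17 by limma). Without hypoxia replicate 3 it was 0.56 and passed (adjusted p = 0.0343), without hypoxia replicate 2 it was 0.26, and over all alternatives the adjusted p ran up to 0.369. Cox4i1, the common form, was at 13.46, 13.44 and 13.49 in ambient and 13.46, 13.45 and 13.36 in hypoxia. Its difference was -0.039 (95% interval -0.14 to 0.065). The within-array ratio of Cox4i2 to Cox4i1 was higher by 0.43 in hypoxia, on all 3 arrays (exact permutation p = 0.1, the smallest possible; adjusted over 3 pairs 0.1). With the ambient mean set to 0, it was 0.47, 0.66 and 0.15 in hypoxia, and at most 0.085 in ambient. On hypoxia replicate 3, where it was 0.15, Cox4i2 lay among the ambient arrays and Cox4i1 had its lowest value.

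Among 13 tested genes of complex IV, 0 passed by limma, 1 was higher and 1 lower at an unadjusted p under 0.05, and the median difference was 0.024. The lower one was Cox5b, a peripheral subunit on the matrix side, at 12.32, 12.18 and 12.25 in ambient and 12.14, 12.14 and 12.11 in hypoxia. The groups did not overlap, and the difference was -0.12 (SE 0.05, adjusted p = 0.203). Cox5a differed by -0.13 with an SE of 0.13, the largest error of any subunit but Ndufa4l2 and Cox4i2. Cox6a1 and Cox8a, the common forms of subunits 6a and 8, differed by 0.0054 and -0.024. Cox7a2l, which takes part in supercomplex assembly, differed by 0.024.

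Forms tied to other tissues were dim, though Cox7a1 and Cox6b2 passed the filter and lay above the bacterial controls on all arrays. The muscle forms Cox6a2 and Cox8b had group means of 4.60 and 4.66, and of 4.76 and 4.78, below the highest bacterial control (5.003), though Cox8b reached 5.04 on hypoxia replicate 2. Cox7a1, a further muscle form, was at 5.80 ± 0.03 in ambient and 5.84 ± 0.12 in hypoxia. Of 8 striated muscle markers, 6 lay at or below the bacterial controls on all arrays, and Ttn did on some. Tnnt2 was brighter, at 7.56, 7.42 and 7.38 in ambient and 7.52, 7.25 and 6.48 in hypoxia. The testis forms were Cox7b2, at 3.83 and 3.74, and Cox6b2, at 6.01, 6.35 and 6.32 in ambient and 6.50, 6.40 and 6.44 in hypoxia. Cox6b2 was higher without overlap, by 0.22 (SE 0.11, adjusted p = 0.258; 0.12 without ambient replicate 1), while the common Cox6b1 was lower without overlap, at -0.092 (SE 0.05, adjusted p = 0.283). Their within-array ratio was higher by 0.31 (exact permutation p = 0.1, the smallest possible; adjusted over 3 pairs 0.1). As both genes were apart in opposite directions, the ratio could not overlap, so its p adds nothing to them. Cox6c-ps1 was at 5.40 ± 0.13 and 5.51 ± 0.05, and signal from Cox6c transcripts on its probes cannot be told apart from its own.

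Complex V, the ATP synthase, showed small differences throughout. Of 16 genes, 0 passed by limma and 1 (Atp5f1a, lower) had an unadjusted p under 0.05. The median difference was -0.0052, 6 were above 0 and 10 below, and all 16 intervals lay within 0.32 of 0. Atp5f1a, the alpha subunit of the catalytic head, was at 11.93, 11.95 and 11.99 in ambient and 11.77, 11.78 and 11.86 in hypoxia, a difference of -0.15 (SE 0.05, adjusted p = 0.115). The groups did not overlap. Atp5f1b, the catalytic beta subunit, was at 12.92, 12.91 and 13.02 in ambient and 13.01, 12.95 and 12.95 in hypoxia, and these overlapped. Its difference was 0.022 (95% interval -0.089 to 0.13), with the opposite sign under quantile normalization (-0.0083). The gamma subunit Atp5f1c differed by -0.068, the delta subunit Atp5f1d by 0.089 and the membrane subunit Atp5me by 0.049. Atp5if1, the inhibitor that stops the enzyme from running backwards and using up ATP, differed by 0.022 (95% interval -0.14 to 0.19). That sign turned to -0.011 under quantile normalization and to -0.0076 with array weights, and at a second, dim probe set it was -0.0053.

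**Figure D2:**
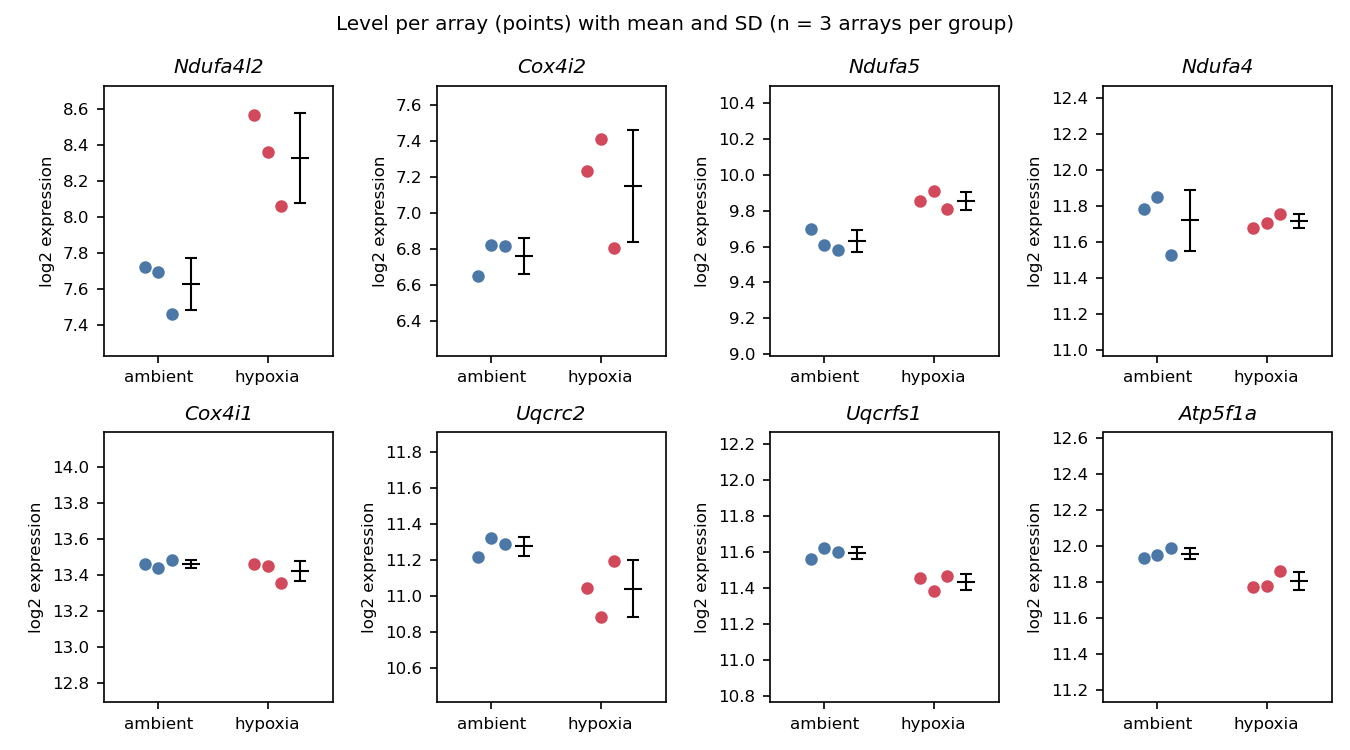
Log2 expression (y axis, a span of 1.5 in every panel) of 8 subunit genes on the 3 ambient and 3 hypoxia arrays. Points are arrays and bars show mean and SD. Ndufa4l2 and Ndufa5 are higher without overlap in hypoxia, Uqcrc2, Uqcrfs1 and Atp5f1a are lower without overlap, and Ndufa4, Cox4i2 and Cox4i1 overlap.

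Seen array by array, the subunits as a whole deviated little, and the groups overlapped. The mean deviation of the 77 genes from their own means was 0.015, -0.0013 and -0.040 on the ambient arrays and 0.0015, 0.033 and -0.0081 on the hypoxia arrays. The lowest array was ambient replicate 3 and the highest hypoxia replicate 2, with the others between and overlapping. Complex I had the same ends, at -0.045 on ambient replicate 3 and 0.049 on hypoxia replicate 2. So had complex IV, at -0.039 and 0.057. Complex V had its lowest value on the same ambient array (-0.034) but lay at -0.0041 on hypoxia replicate 2. The gap of the actin control had the same ends, 0.41 on ambient replicate 3 and 0.77 on hypoxia replicate 2, and that of GAPDH too, -0.047 and 0.057. Their part in these deviations was not tested.

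**Figure D3:**
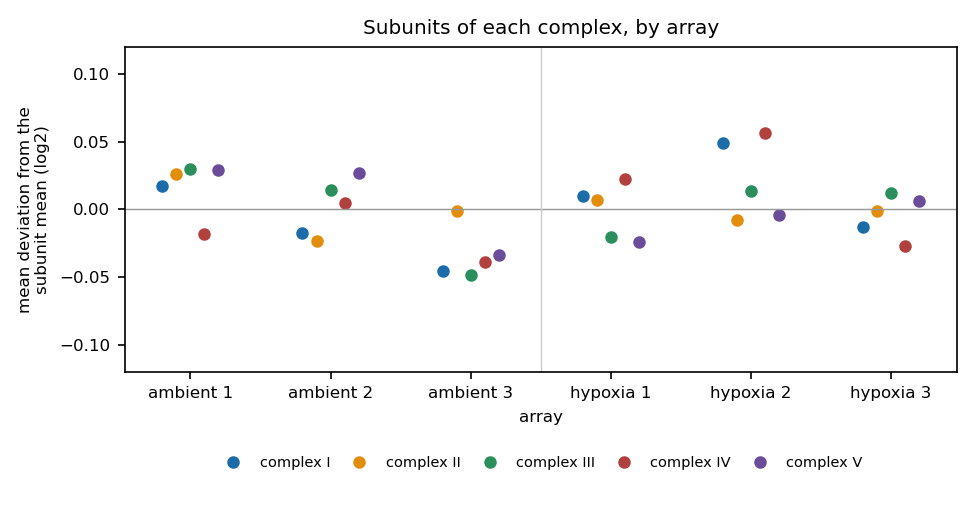
Mean deviation of each complex's subunits from their own mean over the 6 arrays (y axis, log2) on each array (x axis). Colours are complexes. The values lie between -0.049 and 0.057, and those of ambient and hypoxia arrays overlap in every complex.

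Promoters of the subunits were searched because many are known to carry sites for factors that tie nuclear genes to mitochondria. The RefSeq promoter table used here was matched for 72 of the 81 genes, without Atp5pd, Cox4i2, Cox6a1, Cox6c, Cox6c-ps1, Cyc1, Ndufa8, Ndufb9 and Uqcr11. Letters from the nuclear respiratory factor 1 motif, GCGCATG on either strand, were in 10 of the 72 (13.9%), beside 3.45% of all promoters. Those of an ETS site, CCGGAAG on either strand, as bound by GABP, were in 19 (26.4%), beside 7.74%. Letters from the YY1 motif, AAGATGG on either strand, were in 4 (5.56%), beside 4.63%. An E-box, CACGTG, which contains the hypoxia core, was in 5 (6.94%), beside 5.79%. The promoters compared were not matched to the subunits in expression or base composition. The other genes with the nuclear respiratory factor letters were Atp5mg, Atp5po, Cox5b, Ndufa6, Ndufb6, Ndufb8, Sdhb and Uqcrc1. Over the 10, differences ran from -0.12 (Cox5b, lower without overlap) and -0.11 (Ndufb8) to 0.081 (Sdhb), and no gene passed. The windows of Ndufa11 (chr9:1637364-1637613, plus strand) and Atp5me (chr14:1464610-1464859, plus strand) are shown as examples, with the nuclear respiratory factor letters in capitals.
Ndufa11: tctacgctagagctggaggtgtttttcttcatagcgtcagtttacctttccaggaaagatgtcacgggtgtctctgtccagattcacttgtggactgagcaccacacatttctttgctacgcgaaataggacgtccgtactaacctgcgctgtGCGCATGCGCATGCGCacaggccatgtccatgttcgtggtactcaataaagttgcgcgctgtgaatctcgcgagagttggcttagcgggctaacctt
Atp5me: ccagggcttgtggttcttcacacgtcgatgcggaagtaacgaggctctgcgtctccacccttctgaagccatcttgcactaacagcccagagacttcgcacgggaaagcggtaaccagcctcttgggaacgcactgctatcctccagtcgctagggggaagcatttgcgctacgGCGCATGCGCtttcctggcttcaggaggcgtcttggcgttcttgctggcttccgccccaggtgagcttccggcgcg
The capitals begin 97 bases before the start in Ndufa11, where 4 matches overlap, and 76 bases before it in Atp5me, where 2 overlap. Ndufa11 differed by 0.081 (95% interval -0.056 to 0.22) and Atp5me by 0.049 (-0.097 to 0.20).

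Other mitochondrial genes were read beside the subunits. Of 12 genes tied to low oxygen and respiration tested, which include Ndufa4l2 and Cox4i2, 3 rose, 0 fell and all 12 were above 0, with a median of 0.16. Among all probe sets, 4.02% were called higher, 1.97% were called lower and 50.8% were above 0. Bnip3, a HIF1 target that directs mitophagy, the removal of mitochondria, was at 11.56, 11.44 and 11.40 in ambient and 11.76, 11.86 and 11.83 in hypoxia. It rose by 0.35 (SE 0.06, adjusted p = 0.0196). Leaving out hypoxia replicate 2, ambient replicate 2 or ambient replicate 3 ended the call, with an adjusted p of up to 0.0767. Its relative Bnip3l rose by 0.32 (SE 0.07, adjusted p = 0.0469), and a second probe set was at 0.13 and did not pass. Leaving out any 1 array other than hypoxia replicate 3 ended that call (up to 0.146), as did fits with no filter, no variance trend and quantile normalization. Pdk1, the kinase that keeps pyruvate out of the citric acid cycle, differed by 0.18 (SE 0.10) and Lonp1, the matrix protease known to degrade Cox4i1 protein, by 0.013.

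The list of mitophagy and dynamics genes, which shares Bnip3 and Bnip3l, had 0 falls by limma (1 lower at an unadjusted p under 0.05) and a median of 0.060. Of its 15 genes 3 rose, beside 4.02% of all probe sets. The third was Mfn2, a fusion protein of the outer membrane, which rose by 0.34 (SE 0.08, adjusted p = 0.0412). Its call ended when any 1 array other than hypoxia replicate 3 was left out (up to 0.117), with no variance trend, with quantile normalization and with the replicate block. Among 73 mitochondrial ribosomal proteins 1 rose, Mrps22, by 0.39 (SE 0.09, adjusted p = 0.0469), and 0 fell by limma, with 1 lower at an unadjusted p under 0.05. The median was 0.017. The call of Mrps22 ended when any 1 array was left out (up to 0.154), with no filter, no variance trend and quantile normalization.

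The assembly factors had no call by limma. For complex I, 0 of 14 passed (1 at an unadjusted p under 0.05), and the nearest were Timmdc1 (0.26, adjusted p = 0.0825) and Tmem126b (-0.12). For complex II, 0 of 4 passed (0 unadjusted), with Sdhaf2 at 0.11 and Sdhaf1 at 0.12. For complex III, 0 of 5 passed (1 unadjusted). Uqcc2 was at 0.36 (adjusted p = 0.0897, and 0.0468 without hypoxia replicate 3), and Ttc19 at 0.059. For complex IV, 0 of 21 passed (1 higher and 3 lower unadjusted), with Higd1a at 0.20 and the copper chaperone Cox17 at -0.21. For complex V, 0 of 5 passed (0 unadjusted), with Tmem70 at -0.15 and Atpaf2 at 0.094 (-0.029 and 0.019 without ambient replicate 1). Their medians were -0.033, 0.12, 0.031, -0.050 and -0.022 from complex I to V.

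Citric acid cycle genes had 0 calls by limma among 15 (1 higher and 1 lower unadjusted) and a median of -0.058. Suclg2, a subunit of succinyl-CoA ligase, was at 10.93, 10.91 and 10.88 in ambient and 10.72, 10.69 and 10.68 in hypoxia, without overlap. Its difference of -0.21 had an adjusted p of 0.0517, and it passed with array weights, the 60% filter and quantile normalization (0.0374 to 0.0493). Dlst differed by 0.26. Regulators of mitochondrial biogenesis had 0 calls by limma among 12 (1 higher and 1 lower unadjusted), with Esrra at -0.30 (adjusted p = 0.0976) and Myc at 0.21. Ppargc1a lay below the highest bacterial control on all arrays. Genes that keep and transcribe mitochondrial DNA had 0 of 14 (0 unadjusted), with Twnk at -0.15 and Tk2 at 0.16. Protein import had 0 of 24 (3 higher unadjusted), with Timm8b at 0.26 and Timm9 at 0.22. Genes of other electron entry and of ubiquinone synthesis, read as 1 list, had 0 of 16 (0 unadjusted), with 3 above 0 and 13 below. In that list Chdh was at -0.16 (-0.050 without ambient replicate 1) and Etfa at -0.10 (-0.027 without hypoxia replicate 2). Antioxidants had 0 of 8 (1 higher and 1 lower unadjusted), with Prdx5 at -0.27 and Gpx4 at 0.15.

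Of 9 genes that move or buffer adenine nucleotides, phosphate and protons, among them the outer membrane porins Vdac1, Vdac2 and Vdac3, 1 fell and 0 rose by limma. At an unadjusted p under 0.05 were 4, all lower (Ckmt1, Slc25a3, Slc25a5 and Ucp3), beside 23.7% of all probe sets in either direction. The groups did not overlap for 5, all lower, beside 14.1% of all probe sets lower without overlap. Of the 9, 8 were below 0, and the median was -0.14. The carriers Slc25a3, for phosphate, and Slc25a5, for ADP and ATP, differed by -0.14 and -0.23. Ckmt1, the creatine kinase between the mitochondrial membranes, was at 7.56, 6.91 and 7.11 in ambient and 6.52, 5.87 and 5.81 in hypoxia. It fell by 1.12 (SE 0.22, adjusted p = 0.032 by limma). Leaving out any 1 array other than hypoxia replicate 1 ended the call (up to 0.0961), and the difference was -0.68 with an offset of 64. Epithelial markers moved the same way. Their summed linear level was 629 to 913 in ambient and 313 to 560 in hypoxia, and Cldn4 lay at or below the bacterial controls. Of 3 tested 2 fell, beside 1.97% of all probe sets. The part of epithelium in the fall of Ckmt1 was not tested.

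**Figure D4:**
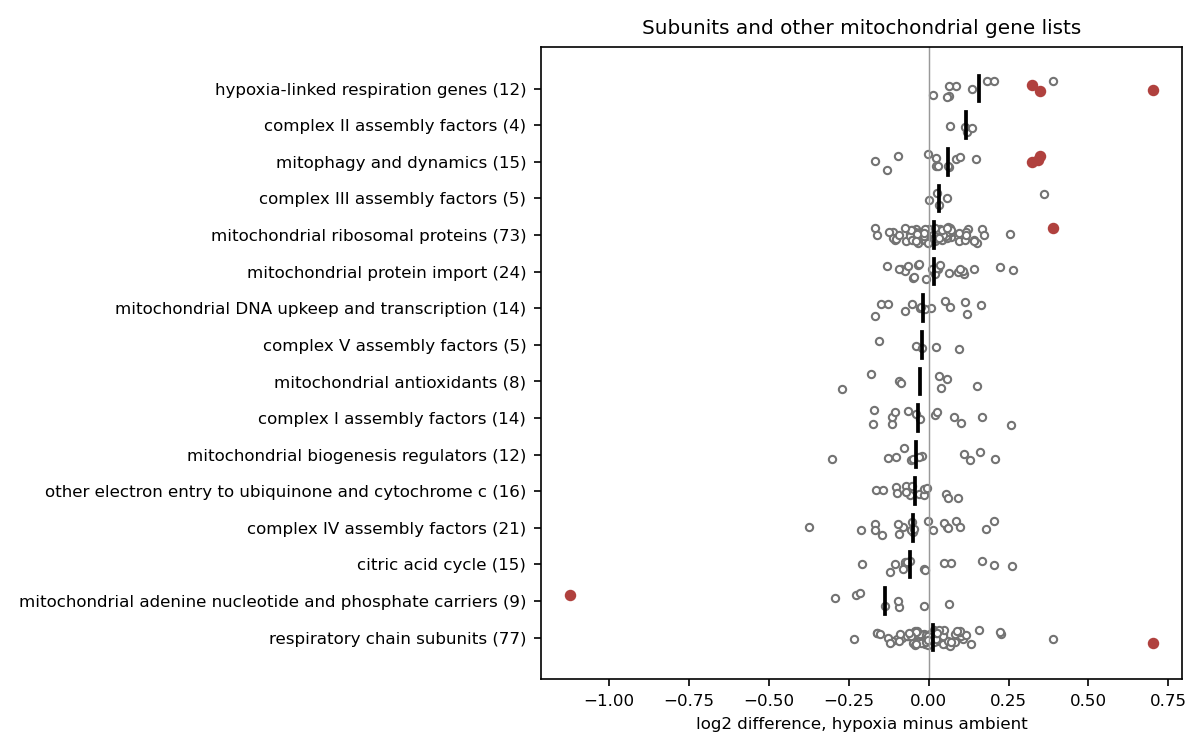
Difference in log2 expression (x axis) of each gene in the subunit list and in the other mitochondrial lists (number of genes tested in brackets). Filled red points have an adjusted p under 0.05, black bars are medians, and vertical scatter within a row has no meaning. The subunits have a median of 0.013, and the group tied to low oxygen one of 0.16.

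A further 7 probe sets that carry a subunit's symbol together with a second symbol were left out. Their differences ran from -0.19 to 0.049. By limma 0 of the 7 passed, and 2 had an unadjusted p under 0.05.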

How the data were processed

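RNA of 6 metrial gland samples was measured on Affymetrix arrays, 1 sample to an array, per the labels. The deposited values are log2 expression, 1 per probe set and array, as the values themselves show. MAS5 and Affymetrix Expression Console are named in the submitters' processing notes, with no role. How probes were background-corrected, summarized and scaled is not stated in those notes or the labels. If arrays were scaled to a common level, a shift shared by most genes would not be seen. Of 31099 probe sets, 57 controls and the 40% with the lowest mean (below 5.74) were left out, which kept 18625. Groups were compared in R 4.3.3 with limma 3.58.1 (lmFit, eBayes with a variance trend, group as the only term, two-sided, Benjamini-Hochberg adjustment over all kept probe sets, threshold 0.05), and the fit was tested on simulated data. Arrays carry no depth, and their number limits the precision.

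Probe sets take their gene from the platform annotation. The subunits, lists and tests were chosen with earlier results of these data known, and no list was tested as a set. Genes named are those past the threshold, the 2 highest and 2 lowest differences of each complex, a set of core subunits, and of each other list up to 6 genes past the threshold or else the 2 of smallest p. Further genes, and the short motif spellings, were chosen after values were seen. The labels do not say whether replicate numbers pair the arrays. The fit with these numbers as a block was an alternative, beside other filters, scalings, variance models and leaving out each array.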

Additional observations from a re-analysis of the deposited data

How the results depend on the processing

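The count of 0 falls among the subunits was the same under all 16 alternatives, and that of 1 rise under all but those that left out an array, where it was 0 to 2. The 2 came without hypoxia replicate 3 (Ndufa4l2 and Cox4i2). With 1 array left out the median differences ran from -0.0021 to 0.028 in complex I, from -0.021 to 0.030 in complex II, from 0.0062 to 0.087 in complex III, from -0.034 to 0.045 in complex IV and from -0.049 to 0.0019 in complex V, and the cause was not tested. Differences near 0 changed sign under quantile normalization for Cox6a1 (-0.0093), Atp5f1b (-0.0083) and Atp5if1 (-0.011), and with array weights for Atp5if1 (-0.0076). With 1 array left out, signs also turned over these ranges: Sdhd -0.065 to 0.021, Cox5a -0.24 to 0.0010, Ndufv1 -0.11 to 0.0069, Ndufa4 -0.10 to 0.060, Uqcrc1 -0.020 to 0.083, Cox6a1 -0.034 to 0.064, Cox7a1 -0.020 to 0.098, Cox8a -0.041 to 0.0030, Atp5if1 -0.045 to 0.076 and Ttc19 -0.0016 to 0.17. Correlations of the deviations of same-numbered arrays were 0.012, 0.071 and 0.071, and those of differently numbered arrays ran from -0.14 to 0.081. With 3 arrays per group these values cannot show whether the numbers pair the arrays. The replicate block gave 1 rise and 0 falls among the subunits. It called 1317 probe sets in place of 1116, and it changed the calls of Mfn2 (adjusted p = 0.0513) and Prdx5 (0.0484) among the genes named. Over all probe sets, leaving out 1 array gave 267 to 1029 calls. Of all calls, 67.1% were higher in hypoxia, and 55.4% were after quantile normalization. With 3 arrays per group the median SE of a subunit was 0.064, which limits what smaller differences can show.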
